A study of Mus musculus with 7 samples.

Results

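The major histocompatibility complex (MHC) genes and the genes that load peptides onto MHC molecules were examined in bleomycin-challenged mouse lungs with and without hyperbaric oxygen (HBO). The members were the protein-coding genes whose symbol starts with H2- together with Cd74, Ciita, B2m, Tap1, Tap2, Tapbp, Psmb8, Psmb9, Psmb10 and Nlrc5. This gave 44 of the 55401 genes of the count table. By role they were 2 classical class I heavy chains, their light chain B2m, 22 non-classical class I genes, 10 class II genes with the invariant chain Cd74 among them, 6 genes of peptide processing and loading, 2 transactivators and H2-Ke6, which encodes an enzyme of fatty acid and steroid metabolism and no MHC chain.

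All 7 mice were male C57BL/6 aged 6 to 8 weeks, and all were given bleomycin, an antitumour drug whose damage to the lung is followed by fibrosis. The 4 BLM mice received no HBO. The 3 BLM+HBO mice breathed oxygen at 2.5 ATA for 90 min per day on 14 consecutive days from day 7. Right lung lobes were collected on day 21 and gave 1 library per mouse. The sample records place the BLM mice in the chamber without pressurized oxygen, whereas the methods of the study leave them untreated, and per the methods mice that lost too little weight after bleomycin were left out. No lung without bleomycin was analysed here, so every value is relative to the bleomycin-injured lung.

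Class I molecules present peptides made inside the cell to CD8 T cells and are found on nearly all nucleated cells. Their peptides are cut by the proteasome, whose catalytic subunits can be replaced by the interferon-inducible immunoproteasome subunits Psmb8, Psmb9 and Psmb10, and are carried into the endoplasmic reticulum by the transporter Tap1-Tap2, where tapasin (Tapbp) helps to load them. Non-classical class I molecules of the Q, T and M groups vary little between individuals and serve more special tasks, such as signalling to NK cells or display of formylated bacterial peptides. Class II molecules present peptides from endosomes to CD4 T cells and are made mainly by B cells, dendritic cells and macrophages, and in the lung also by alveolar type 2 cells. The invariant chain Cd74 escorts them, H2-DM exchanges its remnant for peptide, and H2-O restrains H2-DM. Nlrc5 drives transcription of class I genes and Ciita that of class II genes.

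Total counts ran from 18157161 to 26365969 per mouse. The lung markers Sftpc (alveolar type 2 cells) and Ager (alveolar type 1 cells) lay at 4549 CPM (read counts scaled to the TMM-adjusted library size) or more and at 1545 CPM or more in every mouse. Genes of heart muscle, which can be taken with the lung, summed over 10 markers to between 71.8 and 194 CPM in BLM and between 171 and 730 CPM in BLM+HBO, and 9 of the 10 were higher at P below 0.05. Their part in the results was not tested. Since the RNA came from whole lobes, fewer cells of a type and less RNA per cell cannot be told apart.

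Of the 44 members, 39 lie on chromosome 17 between 33915899 and 37483552 (GRCm38), where the MHC of the mouse is found. B2m, Cd74, Ciita, Nlrc5 and Psmb10 lie on other chromosomes. The upstream sequence of the members on which the comparison turned is shown because MHC promoters share a Y box, the site of the factor NF-Y. RefSeq windows of GRCm38.p6 from 250 bases before to 50 bases after the start were matched by symbol for 37 members, and those of Cd74, Ciita, H2-Ab1, H2-Q1, H2-T24, Nlrc5 and Tap2 were not matched. Motifs were searched on both strands, and a motif is in capitals below. The 150 bases before the start follow for the class I gene H2-K1, for the 3 Q genes with the larger fold changes, for both H2-DM beta chains and for H2-Ob.
H2-K1, chr17:34000334-34000483, minus strand: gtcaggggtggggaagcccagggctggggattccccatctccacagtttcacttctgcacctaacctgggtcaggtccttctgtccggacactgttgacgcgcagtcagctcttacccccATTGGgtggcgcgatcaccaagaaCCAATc
H2-Q4, chr17:35379467-35379616, plus strand: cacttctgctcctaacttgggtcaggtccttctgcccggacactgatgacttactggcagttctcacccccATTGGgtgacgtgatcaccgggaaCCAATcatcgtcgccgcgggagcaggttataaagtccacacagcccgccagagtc
H2-Q6, chr17:35424700-35424849, plus strand: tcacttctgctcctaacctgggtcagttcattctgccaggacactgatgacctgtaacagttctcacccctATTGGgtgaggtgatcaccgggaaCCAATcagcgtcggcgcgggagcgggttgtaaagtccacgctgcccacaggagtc
H2-Q7, chr17:35439005-35439154, plus strand: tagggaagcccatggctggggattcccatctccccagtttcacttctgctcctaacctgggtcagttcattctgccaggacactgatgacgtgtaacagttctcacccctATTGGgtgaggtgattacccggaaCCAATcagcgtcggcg
H2-DMb1, chr17:34153041-34153190, plus strand: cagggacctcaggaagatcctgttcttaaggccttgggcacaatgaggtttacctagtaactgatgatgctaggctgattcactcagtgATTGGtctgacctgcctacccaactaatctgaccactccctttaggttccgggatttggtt
H2-DMb2, chr17:34145099-34145248, plus strand: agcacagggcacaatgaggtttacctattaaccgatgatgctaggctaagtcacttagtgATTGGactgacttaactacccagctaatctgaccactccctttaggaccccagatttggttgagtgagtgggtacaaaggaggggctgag
H2-Ob, chr17:34238755-34238904, plus strand: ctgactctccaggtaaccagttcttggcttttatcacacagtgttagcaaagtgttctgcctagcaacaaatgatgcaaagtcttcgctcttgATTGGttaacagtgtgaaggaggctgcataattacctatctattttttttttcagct
Each of these 7 stretches holds the Y box ATTGG or its reverse complement, and the class I stretches hold it on both strands, as an inverted pair. Without gaps, the windows of H2-Q6 and H2-Q7 were identical at 200 of 261 bases (76.6%) and those of H2-DMb1 and H2-DMb2 at 156 of 271 bases (57.6%). H2-Q6 holds an extra base in a run of c, so the bases upstream of it were compared with H2-Q7 out of register. Identity with gaps was not taken for either pair.

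Psmb9 and Tap1 are read away from each other, and their RefSeq starts lie 225 bases apart, so that both genes share the stretch between them. It is printed on the strand of Tap1, with the Y box in capitals.
Psmb9 to Tap1, chr17:34187331-34187555, plus strand: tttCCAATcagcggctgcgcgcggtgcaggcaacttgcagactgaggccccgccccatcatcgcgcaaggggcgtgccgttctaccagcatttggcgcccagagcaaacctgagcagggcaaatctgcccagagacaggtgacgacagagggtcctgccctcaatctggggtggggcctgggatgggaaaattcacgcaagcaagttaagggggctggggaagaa
Its only match was 1 Y box beside the start of Psmb9.

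Over all windows, the Y box ATTGG was found for 32 of 37 members (86.5%) and for 41.1% of the 27025 genes with a window. All 8 class II genes with a window held it. The core of the class II X1 box, ACAGATG, was found for 4 members (10.8%, against 5.67% of all genes), among them H2-Aa and H2-Oa. The core of the interferon-stimulated response element, GAAANNGAA, was found for B2m, H2-T22 and H2-T23 (8.11% of members against 9.76%). The STAT site TTCNNNGAA was found for 4 members (10.8% against 9.55%), of which H2-DMb2, H2-M3 and Psmb8 were tested. The NF-kB site GGGANTTCC was found for H2-Aa, H2-M2 and H2-Q4 (8.11% against 1.92%). Only the patterns as written were searched for each motif, so a gene that is not named may still hold a variant of a site. The printed stretch of H2-K1, for example, holds tttcacttc and ggggattcccc, which lie close to but outside the interferon and NF-kB patterns. The shares therefore hold for these patterns alone. The matches are letters in a window and no measured binding.

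Expression was then compared between the groups. Of the 32 members that passed the filter on low counts, 31 had a higher fitted level in BLM+HBO, and tapasin alone had a lower one. A total of 14 members were higher at an unadjusted P below 0.05 and none was lower, against 5.11% of the 17465 tested genes called higher and 5.54% called lower. They were H2-K1, H2-M3, H2-Q4, H2-Q6, H2-Q7, H2-Aa, H2-Eb1, H2-DMb2, H2-Ob, Psmb8, Psmb9, Psmb10, Tap1 and Ciita. With a fold change above 1.5 as well, 6 members were higher, namely H2-Q4, H2-Q6, H2-Q7, H2-Ob, H2-DMb2 and Psmb9, and none was lower, against 3.4% and 2.89% of tested genes. In 4 members, H2-DMb2, H2-M3, Psmb9 and Psmb10, every BLM+HBO mouse lay above every BLM mouse, and in none below, against 4.05% and 4.72%. No member passed an adjusted P below 0.05 in edgeR's quasi-likelihood test with Benjamini-Hochberg adjustment (the lowest was 0.423), nor did any other gene (0%), and limma-trend also called no gene. DESeq2 called 128 of the 17465 genes and no member. Without the filter on low counts, 387 of 32896 genes passed it in edgeR, 5 of the 42 members then tested among them (H2-Ob, H2-Q4, H2-Q6, H2-Q7 and Psmb9). The adjusted P given beside each gene below is from this edgeR test, and a gene is said to pass where its unadjusted P was below 0.05.

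**Figure D1:**
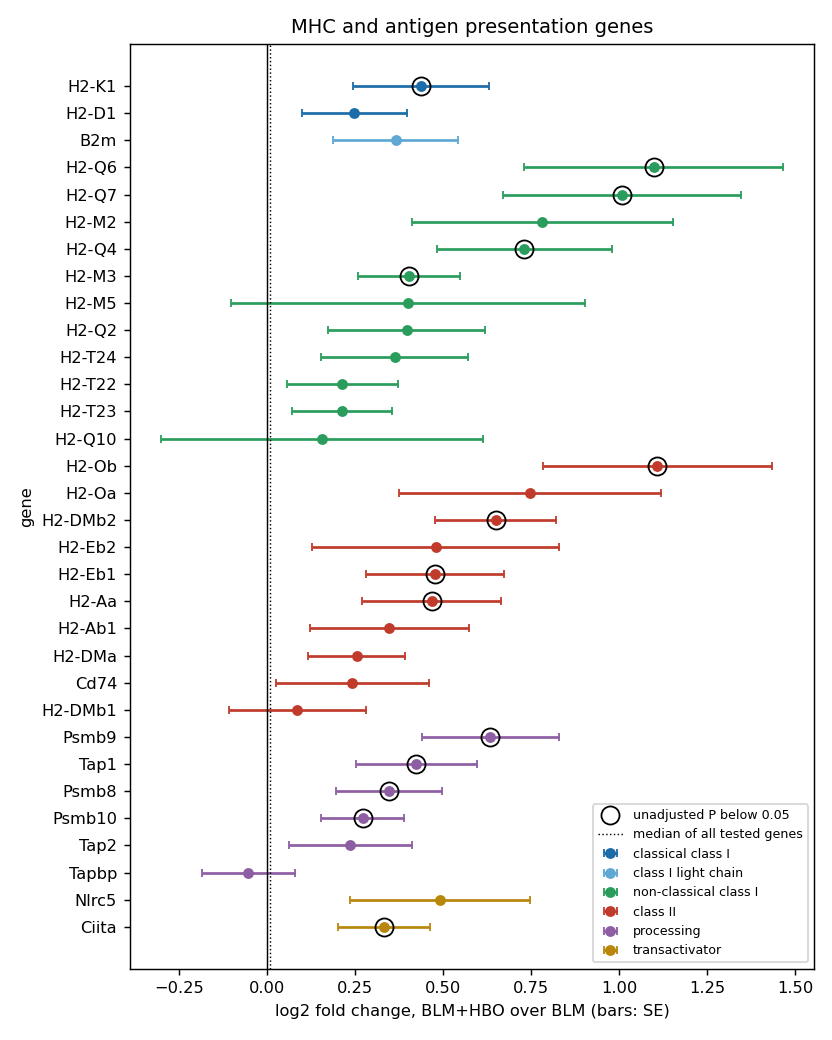
Log2 fold change (x axis) of each tested member (y axis), BLM+HBO over BLM, with SE bars, coloured by role. Rings mark the 14 members with an unadjusted P below 0.05, the dotted line is the median of all tested genes at 0.01, and Tapbp is the only member to the left of 0.

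The median log2 fold change was 0.34 for the 2 classical class I genes, 0.40 for the 11 tested non-classical genes, 0.47 for the 10 class II genes and 0.31 for the 6 processing genes, beside 0.01 over all tested genes. The difference between these medians was not tested. When BLM+HBO 1 was left out, the class II median fell to 0.26, and the other medians were 0.26 for classical class I, 0.31 for non-classical and 0.22 for processing genes. Of the other protein-coding genes that lie between the outermost members on chromosome 17, 102 were tested. Their median was 0.02, with 2 higher and 3 lower at P below 0.05.

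The mice of a group differed. BLM+HBO 1 was the highest of the 7 mice for 26 of the 32 members, and BLM 1 or BLM 2 the lowest for 28. BLM 4 was the highest BLM mouse for 28 members and lay above at least 1 BLM+HBO mouse for 27. Relative to the BLM mean, the median of the members lay at -0.27, -0.15, 0.10 and 0.35 log2 units in BLM 1 to 4 and at 0.67, 0.29 and 0.26 in BLM+HBO 1 to 3, so that BLM 4 lay among the BLM+HBO mice. The count of 6 members past both thresholds fell to 1 (H2-Ob) when BLM+HBO 1 was left out and became 10 when BLM 4 was. The share of all tested genes higher past both thresholds went from 3.4% to 1.93% and 3.97%. The 14 members at P below 0.05 became 3 and 17. The share of all tested genes called higher at that P went from 5.11% to 2.82% and 5.74%. The 14 became 7 when BLM 1 was left out and 6 when BLM 2 was, with 3.39% and 3.33% of all tested genes called higher. H2-DMb2, H2-Ob and Psmb9 kept P below 0.05 whichever mouse was left out, and the other 11 lost it when BLM+HBO 1 was, with log2 fold changes then from 0.18 (Psmb10) to 0.81 (H2-Q6). The 4 members whose groups did not overlap became 22 when BLM 4 was left out, 12 when BLM+HBO 2 was and 8 when BLM+HBO 3 was. Leaving out a mouse makes separation easier for any gene. The share of all tested genes without overlap was not taken for these fits.

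**Figure D2:**
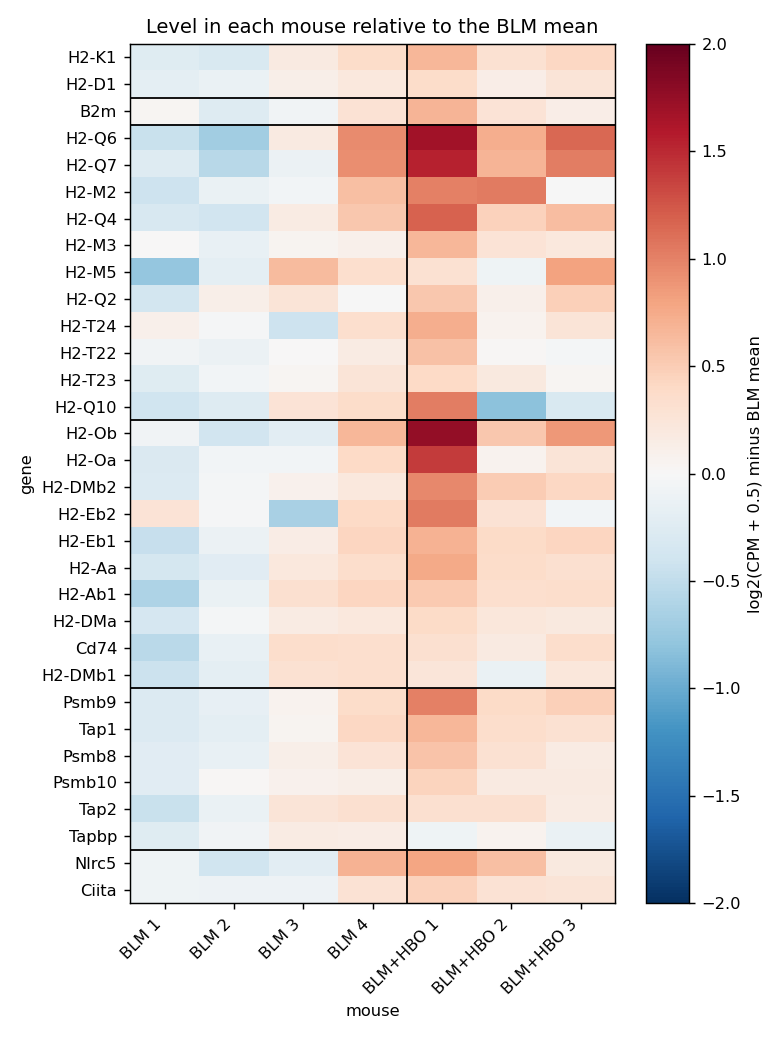
Level of each tested member (rows, grouped by role) in each mouse (columns), as log2(CPM + 0.5) minus the mean of the 4 BLM mice. BLM 1 and BLM 2 are mostly blue, BLM 4 and the 3 BLM+HBO mice mostly red, and BLM+HBO 1 is the darkest column.

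Per kilobase of exon, B2m was the most abundant member in BLM lungs, at 1273 ± 203 CPM per kilobase (SD, n = 4), followed by Cd74 at 1049 ± 292. These values overlapped within their spread. The heavy chains H2-D1 (601 ± 82.5) and H2-K1 (453 ± 103) came next, then the class II chains H2-Ab1 (189 ± 58.1), H2-Eb1 (186 ± 47.9) and H2-Aa (138 ± 32.3), which did not differ beyond their spread. Tapbp stood at 96.3 ± 12.8, H2-T23 at 73.7 ± 10.7, H2-Q4 at 66.4 ± 20.8 and H2-Q6 at 54.4 ± 29.3 CPM per kilobase. At the low end were the transactivators Ciita (3.85 ± 0.571) and Nlrc5 (3.51 ± 1.33), the H2-O chains H2-Ob (2.95 ± 1.09) and H2-Oa (2.46 ± 0.587), and H2-M5 (0.450 ± 0.252). The exon length joined the exons of all annotated transcripts of a gene. For H2-Aa, H2-K1 and H2-D1, among others, it was longer than the longest coding transcript. The order of the genes may therefore differ with another length.

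The classical class I heavy chains display peptides to CD8 T cells. H2-K1 was at 1108, 1054, 1480 and 1686 CPM in BLM 1 to 4 and at 2063, 1611 and 1735 CPM in BLM+HBO 1 to 3. BLM 4 exceeded BLM+HBO 2, and the other BLM mice lay below all BLM+HBO mice. Its log2 fold change was 0.44 ± 0.19 (SE, adjusted P = 0.467). H2-D1 was at 1343, 1400, 1667 and 1788 CPM in BLM and at 1994, 1689 and 1837 CPM in BLM+HBO, with a log2 fold change of 0.25 ± 0.15 (adjusted P = 0.58). Again only BLM 4 reached into the BLM+HBO range. The light chain B2m, which every class I heavy chain needs to reach the surface, was at 1109, 909, 1037 and 1326 CPM in BLM and at 1729, 1305 and 1196 CPM in BLM+HBO. Its log2 fold change was 0.37 ± 0.18 (adjusted P = 0.5), and BLM 4 lay above both BLM+HBO 2 and BLM+HBO 3.

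Nlrc5, the class I transactivator, was at 26.7, 21.5, 24.7 and 46.4 CPM in BLM and at 49.7, 43.5 and 32.8 CPM in BLM+HBO. The values of BLM 4 and BLM+HBO 1 were the highest pair, and the log2 fold change was 0.49 ± 0.26 (adjusted P = 0.522).

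Among the non-classical genes, 3 members of the Q group passed P below 0.05. H2-Q6 was at 75.5, 63.2, 117 and 198 CPM in BLM and at 331, 171 and 227 CPM in BLM+HBO (log2 fold change 1.10 ± 0.37, adjusted P = 0.423, 2.14-fold). H2-Q7, whose product is one of the Qa-2 antigens, was at 55.6, 45.5, 61.3 and 128 CPM in BLM and at 196, 107 and 136 CPM in BLM+HBO (1.01 ± 0.34, adjusted P = 0.423, 2.01-fold). H2-Q4 was at 133, 127, 187 and 242 CPM in BLM and at 376, 228 and 254 CPM in BLM+HBO (0.73 ± 0.25, adjusted P = 0.423, 1.66-fold). In each of the 3 genes, BLM 4 lay above BLM+HBO 2 and below the other BLM+HBO mice. Each lost P below 0.05 without BLM+HBO 1. Of the possible 150-base reads, 5.99% of H2-Q6 and 9.68% of H2-Q7 match another gene exactly, mainly each other. Reads of these near copies may therefore have been left out or shifted between them. For H2-Q4, 8.39% match Gm11131, whose exons overlap those of H2-Q4, and reads that overlap several genes were not counted. H2-Q2 was between 4.68 and 7.47 CPM in BLM and between 6.65 and 9.21 in BLM+HBO (0.40 ± 0.22, adjusted P = 0.549). H2-Q10, a secreted class I molecule made mainly in liver, was between 3.30 and 6.00 CPM in BLM and at 9.74, 2.35 and 3.56 CPM in BLM+HBO (0.16 ± 0.46, adjusted P = 0.931), and its fitted difference turned to -0.65 without BLM+HBO 1.

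The M group held 1 gene past P below 0.05. H2-M3, which presents formylated peptides of bacteria and mitochondria, was at 21.1, 19.0, 21.8 and 22.6 CPM in BLM and at 33.8, 25.6 and 24.4 CPM in BLM+HBO. The groups did not overlap, with a log2 fold change of 0.40 ± 0.14 (adjusted P = 0.425). H2-M2 lay between 2.09 and 4.79 CPM in BLM and between 2.96 and 6.65 in BLM+HBO (0.78 ± 0.37, adjusted P = 0.492), and H2-M5 between 0.441 and 1.98 and between 1.005 and 2.29 CPM (0.40 ± 0.50, adjusted P = 0.807).

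The T group gave no call. H2-T23, which encodes Qa-1, the ligand of NK cell receptors of the NKG2 family, was at 178, 204, 218 and 252 CPM in BLM and at 280, 242 and 218 CPM in BLM+HBO (log2 fold change 0.21 ± 0.14, adjusted P = 0.615). H2-T22, a ligand of some gamma delta T cell receptors, lay between 111 and 136 CPM in BLM and between 118 and 181 in BLM+HBO (0.21 ± 0.16, adjusted P = 0.649), and without BLM+HBO 1 its difference was -0.01. H2-T24 lay between 16.2 and 27.5 CPM in BLM and between 22.9 and 36.4 in BLM+HBO (0.36 ± 0.21, adjusted P = 0.558).

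The other 12 members did not pass the filter, and 8 of them had under 10 counts in all mice together. They were H2-M1, the 6 H2-M10 genes, H2-M11, H2-M9, H2-Q1, H2-T3 and H2-Ke6. H2-M10.4 and H2-M10.5 had no count in any mouse. H2-Q1 had 7, 4, 7 and 8 counts in BLM and 42, 3 and 6 in BLM+HBO, the 42 in BLM+HBO 1. H2-M9 had 6, 6, 5 and 7 counts in BLM and 0, 1 and 4 in BLM+HBO, the reverse order of most members. For H2-Ke6, 86.4% of the exon bases lie within exons of Gm20427, and reads that overlap several genes were not counted.

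**Figure D3:**
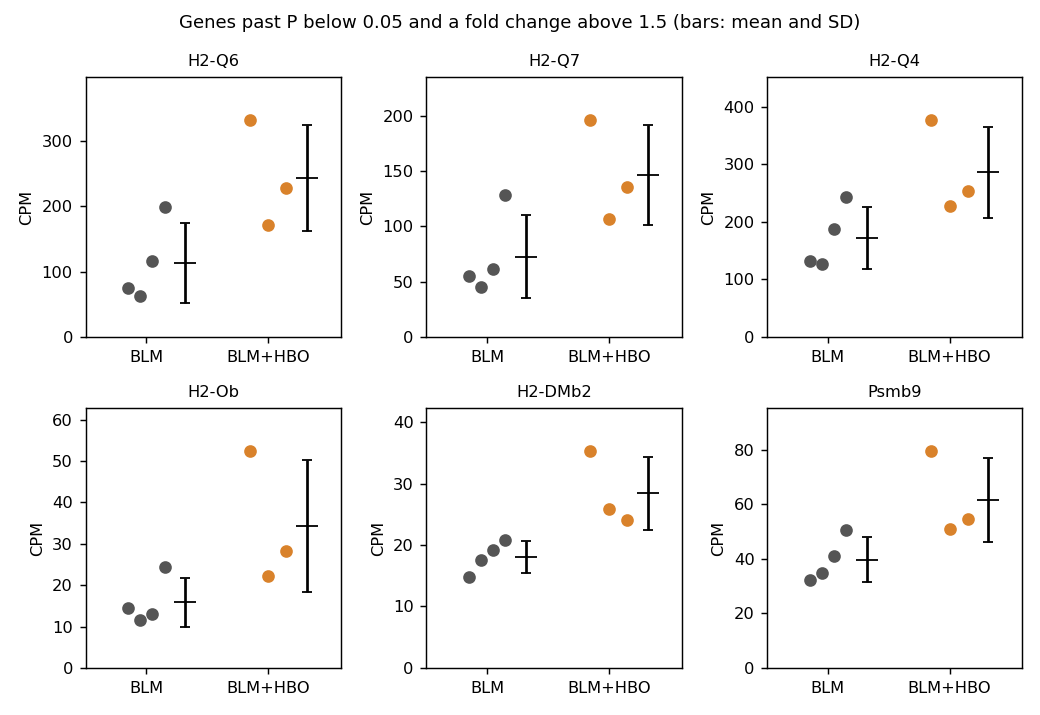
CPM (y axes, from 0) of the 6 members past an unadjusted P below 0.05 and a fold change above 1.5, with 1 point per mouse and the mean and SD beside each group. H2-DMb2 and Psmb9 show no overlap between the groups, whereas in the Q genes and H2-Ob the highest BLM mouse lies above the lowest BLM+HBO mouse.

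All 10 class II genes had higher fitted levels in BLM+HBO, and 4 of them passed P below 0.05. H2-Aa and H2-Ab1 encode the alpha and beta chains of the I-A molecule. H2-Aa was at 402, 442, 597 and 659 CPM in BLM and at 872, 660 and 644 CPM in BLM+HBO, with a log2 fold change of 0.47 ± 0.20 (adjusted P = 0.457). H2-Ab1 was at 304, 426, 582 and 630 CPM in BLM and at 668, 587 and 597 CPM in BLM+HBO (0.35 ± 0.23, adjusted P = 0.608). In both chains BLM 1 was the lowest and BLM 4 lay within the BLM+HBO range. H2-Eb1, the beta chain of I-E, was at 257, 324, 392 and 474 CPM in BLM and at 573, 461 and 476 CPM in BLM+HBO (0.48 ± 0.20, adjusted P = 0.452). C57BL/6 mice make no I-E alpha chain, and its gene H2-Ea-ps, annotated as a pseudogene, had 3 counts in BLM 3 and 0 in the other mice. H2-Eb2 lay between 2.69 and 6.06 CPM in BLM and between 4.28 and 9.69 in BLM+HBO (0.48 ± 0.35, adjusted P = 0.645).

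Cd74, the invariant chain, was at 1171, 1542, 2172 and 2157 CPM in BLM and at 2132, 1940 and 2173 CPM in BLM+HBO. BLM 3 and BLM 4 lay within the BLM+HBO range, and the log2 fold change was 0.24 ± 0.22 (adjusted P = 0.715). Ciita, which drives class II genes, was at 34.2, 34.0, 33.8 and 44.9 CPM in BLM and at 50.5, 44.4 and 43.7 CPM in BLM+HBO. The first 3 BLM mice were nearly equal and below all BLM+HBO mice, whereas BLM 4 lay within their range (log2 fold change 0.33 ± 0.13, adjusted P = 0.441).

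H2-DM consists of the alpha chain H2-DMa and 1 of 2 beta chains. H2-DMb2 was at 14.8, 17.5, 19.1 and 20.9 CPM in BLM and at 35.2, 25.8 and 24.1 CPM in BLM+HBO. The groups did not overlap (log2 fold change 0.65 ± 0.17, adjusted P = 0.423), and P stayed below 0.05 whichever mouse was left out. H2-DMb1 was at 63.3, 74.7, 106 and 108 CPM in BLM and at 101, 78.4 and 101 CPM in BLM+HBO (0.09 ± 0.20, adjusted P = 0.908). Its difference was -0.04 without BLM 1. H2-DMa was at 50.4, 62.1, 71.3 and 73.3 CPM in BLM and at 82.6, 74.5 and 72.9 CPM in BLM+HBO (0.25 ± 0.14, adjusted P = 0.541). The beta chains share 72 of their 150-base windows, 5.74% of those of H2-DMb1 and 5.40% of those of H2-DMb2.

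H2-O, the modulator of H2-DM that is most abundant in B cells, is made of H2-Oa and H2-Ob. H2-Ob was at 14.4, 11.5, 13.1 and 24.5 CPM in BLM and at 52.3, 22.3 and 28.2 CPM in BLM+HBO. BLM 4 lay above BLM+HBO 2, and BLM+HBO 1 had the highest level of the 7 mice. Its log2 fold change of 1.11 ± 0.33 (adjusted P = 0.423, 2.16-fold) kept P below 0.05 whichever mouse was left out, with a range from 0.67 to 1.40. H2-Oa was at 2.70, 3.27, 3.24 and 4.63 CPM in BLM and at 9.74, 3.59 and 4.16 CPM in BLM+HBO (0.75 ± 0.37, adjusted P = 0.507), and at 0.16 without BLM+HBO 1.

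In peptide processing, the 3 immunoproteasome subunits and Tap1 passed P below 0.05. Psmb9 was at 32.4, 34.8, 41.0 and 50.7 CPM in BLM and at 79.5, 51.0 and 54.5 CPM in BLM+HBO, without overlap (log2 fold change 0.63 ± 0.19, adjusted P = 0.423). Psmb8 was at 50.4, 53.2, 64.1 and 71.2 CPM in BLM and at 88.4, 73.4 and 66.2 CPM in BLM+HBO (0.35 ± 0.15, adjusted P = 0.462). Psmb10 was at 64.3, 76.1, 80.1 and 81.1 CPM in BLM and at 102, 85.5 and 85.0 CPM in BLM+HBO, also without overlap (0.27 ± 0.12, adjusted P = 0.467). The groups of Psmb9 and Psmb10 were separated by small gaps, between BLM 4 and the lowest BLM+HBO mouse. The constitutive subunits that they replace had log2 fold changes of -0.06 ± 0.12 for Psmb6 (adjusted P = 0.895), -0.16 ± 0.11 for Psmb7 (adjusted P = 0.615) and -0.22 ± 0.13 for Psmb5 (adjusted P = 0.557).

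The transporter gene Tap1 was at 74.2, 78.7, 93.6 and 120 CPM in BLM and at 143, 115 and 111 CPM in BLM+HBO. BLM 4 lay within the BLM+HBO range (log2 fold change 0.42 ± 0.17, adjusted P = 0.447). Tap2 was at 59.6, 73.7, 97.0 and 101 CPM in BLM and at 101, 101 and 91.2 CPM in BLM+HBO (0.24 ± 0.18, adjusted P = 0.649). Tapbp was at 292, 332, 388 and 386 CPM in BLM and at 327, 364 and 318 CPM in BLM+HBO (-0.05 ± 0.13, adjusted P = 0.915), with the groups fully intermixed. Exons of another gene cover 29.0% of the exon bases of Tapbp, 29.4% of H2-T22, 22.8% of H2-Oa, 19.1% of H2-Q4, 18.5% of Tap2, 14.7% of Psmb8 and 10.4% of H2-DMa, and reads there were not counted without strand.

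Ratios of 2 chains within a mouse do not depend on library size. The 5 ratios, taken per kilobase, were chosen after the values were seen. Psmb9 over Psmb6 was 0.167, 0.167, 0.161 and 0.264 in BLM and 0.370, 0.261 and 0.273 in BLM+HBO (mean 0.190 ± 0.0494 against 0.301 ± 0.0598). Psmb8 over Psmb5 was 0.167 ± 0.0257 in BLM and 0.252 ± 0.0673 in BLM+HBO, and Psmb10 over Psmb7 was 2.46 ± 0.485 and 3.29 ± 0.438. For all 3 ratios the 2-sided exact permutation P was 0.0857. H2-DMb2 over H2-DMb1 was 0.225, 0.226, 0.174 and 0.186 in BLM and 0.335, 0.317 and 0.231 in BLM+HBO, without overlap, with an exact permutation P of 0.0286, the smallest that the 35 assignments allow. H2-K1 over H2-D1 was 0.748 ± 0.072 and 0.858 ± 0.0435 (exact permutation P = 0.0571). After adjustment over the 5 ratios every exact permutation P was 0.0857.

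**Figure D4:**
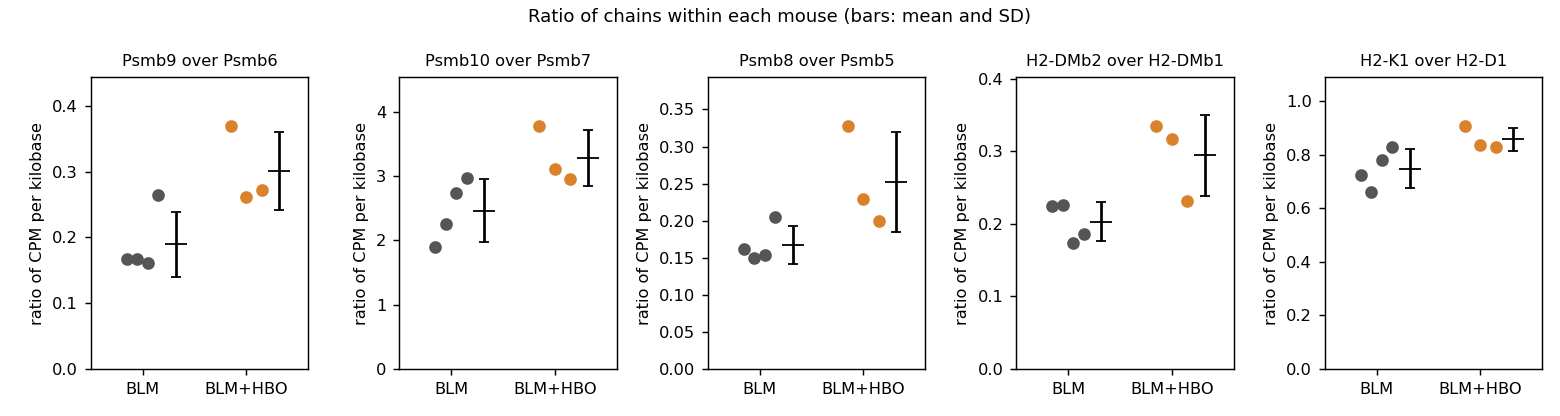
Ratio of the levels of 2 genes per kilobase of exon within each mouse (y axes, from 0), with 1 point per mouse and the mean and SD beside each group. The 3 immunoproteasome ratios overlap through BLM 4, whereas H2-DMb2 over H2-DMb1 does not overlap. H2-K1 over H2-D1 does not overlap either, by a narrow gap.

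Summed over its 10 genes, class II stood at 2285, 2907, 3958 and 4158 CPM in BLM and at 4535, 3858 and 4124 CPM in BLM+HBO, and the 2 classical class I genes at 2451, 2454, 3148 and 3474 CPM and at 4058, 3300 and 3572 CPM. The ratio of class II to classical class I lay between 0.932 and 1.26 in BLM and between 1.12 and 1.17 in BLM+HBO. That of non-classical to classical class I lay between 0.242 and 0.295 and between 0.283 and 0.361. Both ratios overlapped between the groups. All members together took 0.698%, 0.729%, 0.960% and 1.09% of the counts in BLM and 1.32%, 1.04% and 1.08% in BLM+HBO.

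Other genes of the pathways were taken from 3 lists. Of 13 tested genes of peptide loading and class I-like molecules, none passed P below 0.05, and 5 had a higher fitted level in BLM+HBO. The chaperones Calr (-0.22 ± 0.15, adjusted P = 0.622) and Pdia3 (-0.09 ± 0.12, adjusted P = 0.819) had lower fitted levels. Of 14 further class II pathway genes, 2 were lower and none was higher. Both encode proteases of the endosome. Lgmn (legumain) was at 619, 564, 607 and 489 CPM in BLM and at 265, 425 and 281 CPM in BLM+HBO, without overlap (log2 fold change -0.82 ± 0.18, adjusted P = 0.423). Ctsl (cathepsin L) was at 565, 448, 685 and 496 CPM in BLM and at 271, 476 and 282 CPM in BLM+HBO (-0.68 ± 0.23, adjusted P = 0.423). BLM+HBO 2 was the highest BLM+HBO mouse for both, and for Ctss (cathepsin S, which trims the invariant chain) at -0.43 ± 0.23 (adjusted P = 0.533). Rfx5, a subunit of the factor that binds the X box, stood at 0.13 ± 0.14 (adjusted P = 0.767).

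Of 23 tested genes of the interferon gamma axis, 3 were higher and none was lower. Irf1, an interferon-induced transcription factor, was at 73.5, 71.0, 84.0 and 89.3 CPM in BLM and at 95.5, 95.8 and 94.4 CPM in BLM+HBO, without overlap (log2 fold change 0.26 ± 0.11, adjusted P = 0.452). Gbp4, a guanylate-binding protein, was at 22.1, 31.96, 21.2 and 50.8 CPM in BLM and at 112, 35.5 and 56.3 CPM in BLM+HBO (1.10 ± 0.40, adjusted P = 0.425). Ifng itself lay at 0.905 CPM or less in every mouse and was not tested. Cxcl9 (0.18 ± 0.41, adjusted P = 0.911) and Iigp1 (0.01 ± 0.28, adjusted P = 0.994), which interferon gamma also induces, did not pass. Nor did Gbp2, Gbp3, Gbp5, Gbp7 and Igtp, GTPases of the same kind of response, whose log2 fold changes lay between 0.33 and 0.61. Of the 23 genes, 15 had a higher fitted level in BLM+HBO.

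Markers of the cells that carry class II moved with the members in part. The 10 B cell markers summed to between 84.6 and 146 CPM in BLM and between 143 and 297 CPM in BLM+HBO, and 9 of 10 were higher at P below 0.05. The 12 dendritic cell markers summed to between 285 and 408 CPM and between 335 and 479 CPM, with 4 higher (Clec9a, Cd209a, Ccl22 and Siglech). The 12 markers of monocytes and interstitial macrophages summed to between 2852 and 6006 CPM in BLM and between 2049 and 3141 CPM in BLM+HBO, with 8 lower and none higher. The 10 alveolar macrophage markers summed to between 613 and 2076 CPM and between 573 and 782 CPM, with 3 lower and 1 higher of the 9 tested, and Fabp1 at 0 in BLM 1 and BLM 2. Most of these sums was Chil3, at 418 to 1856 CPM in BLM and 411 to 578 CPM in BLM+HBO. The median log2 fold change of the 9 was 0.03, and 5 of them had a higher fitted level in BLM+HBO. The 10 alveolar type 2 markers summed to between 9826 and 17840 CPM and between 12340 and 29650 CPM, with 1 higher.

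Markers of the lymphocytes that read MHC molecules, and of some other cells, were examined as well. The 10 NK cell markers summed to 15.3, 15.8, 21.7 and 41.5 CPM in BLM and to 126, 39.2 and 38.3 CPM in BLM+HBO, with 7 of 10 higher. BLM 4 was the highest BLM mouse and BLM+HBO 1 the highest of all, the same 2 mice as for most members. This order was not particular to NK cells. The sums of the B cell, T cell, endothelial, pan-leukocyte and heart muscle markers had the same 2 mice in these places. The 10 T cell markers summed to between 51.9 and 85.7 CPM and between 57.9 and 126 CPM, and none of them passed. Of 9 tested neutrophil markers 1 was lower and none was higher. The 10 endothelial and 8 pan-leukocyte markers gave no call, with sums of 3062 to 3774 and 1442 to 1649 CPM in BLM and of 3134 to 4348 and 1215 to 1736 CPM in BLM+HBO. Of 8 alveolar type 1 markers 1 was lower, and their sums were 4196 to 6135 and 5524 to 6175 CPM. The part of these cells in the levels of the members was not tested.

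**Figure D5:**
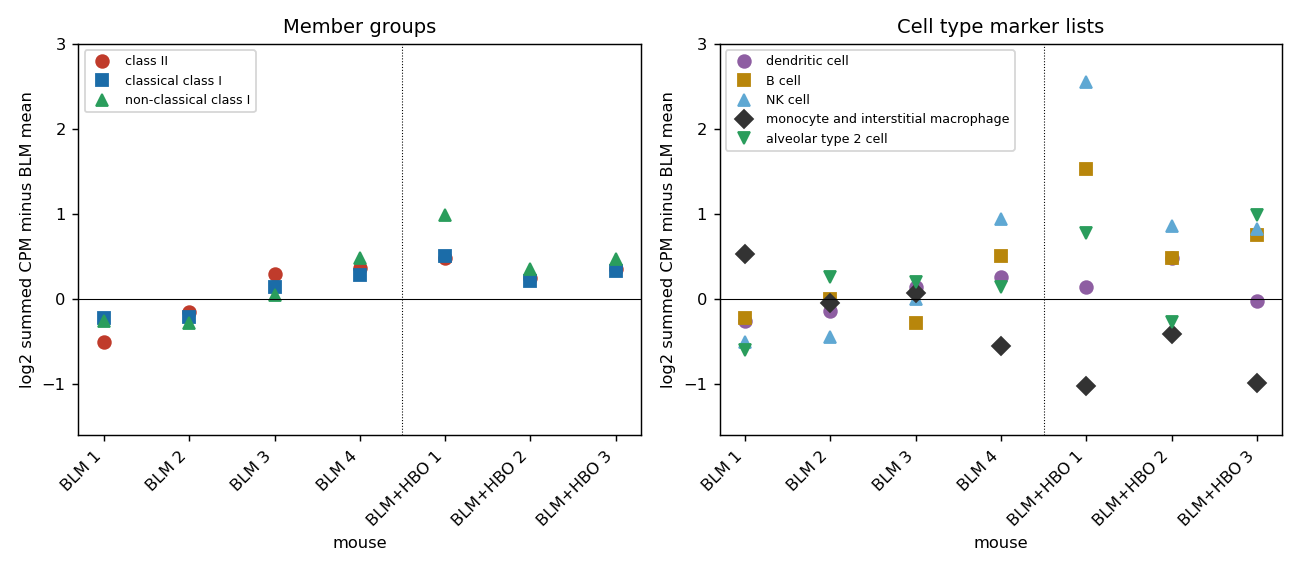
Summed CPM of 3 member groups (left) and of 5 cell type marker lists (right) in each mouse, as log2 minus the mean of the 4 BLM mice. NK and B cell markers are highest in BLM+HBO 1, as the member groups are, whereas monocyte and interstitial macrophage markers are lowest in BLM+HBO 1 and BLM+HBO 3.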

How the data were processed

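Libraries were made by the authors with NEBNext Ultra and sequenced as paired ends. Per the methods of the study, reads were trimmed with Trim Galore, mapped to GRCm38 with Hisat2 (2.2.0 in the submitters' processing notes) and counted per gene with featureCounts at default settings. The deposited values were raw read counts from the authors, without normalization. Default counting ignores strand and leaves out reads of several places or several genes, which lowers the counts of near copies and overlapping genes. The annotation release was not given in the sources used here.

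Symbols and gene types came from GENCODE vM21, which named 55141 of 55401 genes. Exon lengths and coordinates were those of the table. A filter on low counts (filterByExpr, minimum count 10 and minimum total 15) left 17465 genes, which were scaled by TMM and tested with edgeR 4.0.16 under R 4.3.3 (quasi-likelihood, BLM as reference, Benjamini-Hochberg adjustment over all tested genes). Counts of calls used its unadjusted P unless stated. The thresholds, a fold change above 1.5 at P below 0.05, followed the study. CPM used TMM library sizes. Ratios were compared by 2-sided exact permutation over 35 assignments. DESeq2 1.42.0, limma 3.58.1, other factors and filters, a robust fit, a replicate block and leaving out each mouse were alternatives. The edgeR fit was tested on simulated data. Python 3.11.15 was used for the other steps.

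P-values measure the spread between these mice. Replicate numbers were not taken to pair the mice, as the correlations of same-numbered deviations were -0.01, -0.07 and 0.16. Members and lists were chosen with earlier results of these data known. Every member that passed the filter is named, and from the pathway lists those with P below 0.05 and a few others are named, with Calr, Pdia3, Cxcl9, Iigp1, Igtp and 4 Gbp genes added after their values were seen. The values of 1 gene of the interferon gamma list are not reported here.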

Additional observations from a re-analysis of the deposited data

Results flagged for a closer look

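In the BLM group, 37 sets of values (32 members and 5 ratios) were examined for a mouse far from the other 3, and 2 stood apart, about as many as chance gives at 1 in 20. For Ciita the gap of BLM 4 to the next mouse was 0.955 of the range of the group, at log2 CPM of 5.10, 5.09, 5.08 and 5.49 in BLM 1 to 4. For the ratio of Psmb9 to Psmb6 the gap of BLM 4 was 0.942 of the range, at 0.167, 0.167, 0.161 and 0.264.

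Of 11 H2- genes of the table that are not annotated as protein-coding, 4 had enough reads to be tested, and 2 of them were higher in BLM+HBO. H2-Q5, a polymorphic pseudogene, was at 12.1, 9.86, 19.3 and 27.2 CPM in BLM and at 44.6, 29.6 and 37.9 CPM in BLM+HBO, without overlap (log2 fold change 1.12 ± 0.31, adjusted P = 0.423 by edgeR's quasi-likelihood test). H2-K2, a transcribed pseudogene, was at 8.76, 8.79, 11.4 and 10.5 CPM in BLM and at 19.2, 11.9 and 15.4 CPM in BLM+HBO, also without overlap (0.65 ± 0.20, adjusted P = 0.423 by the same test). H2-Q7 shares sequence windows with H2-Q5.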

How the results depend on the processing

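The 4 medians of the member groups stayed above 0 under every alternative. Their shifts from the main fit were smaller than the spread between mice. Without 1 mouse the medians ranged from 0.26 to 0.45 (classical class I), 0.31 to 0.53 (non-classical), 0.26 to 0.61 (class II) and 0.22 to 0.40 (processing). The count of 6 members past both thresholds was 3 at a fold change above 2, 3 at P below 0.01, 10 with the replicate block, and 1 to 10 without 1 mouse. Of all tested genes, 3.85% were higher past both thresholds with the replicate block and 1.93% to 5.29% without 1 mouse. The share over all genes was not taken for the stricter fold change or the stricter P. No member passed adjusted P below 0.05 except without the filter on low counts, where 5 did (H2-Ob, H2-Q4, H2-Q6, H2-Q7 and Psmb9) among 387 of 32896 genes. In that fit 8 members were higher and H2-M9 lower past both thresholds. Of all genes of that fit 3.27% were higher past both, and the share lower was not taken. Without overlap, 3 members were higher (H2-DMb2, H2-M3 and Psmb10, no longer Psmb9) and H2-M9 lower. Members without overlap numbered 4 to 22 without 1 mouse, and the share over all genes was not taken under the alternatives. The replicate block moved no other count by over 1.5 times. The BLM mice 1 and 2 did not correlate best with their own number, whereas BLM 3 did (0.161). Differences near 0 changed sign for H2-Q10 (-0.051 with limma-trend, and -0.652 to 0.503 without 1 mouse), Tapbp (0.004 with the replicate block, and -0.132 to 0 without 1 mouse), H2-T22 (-0.012 to 0.318), H2-DMb1 (-0.042 to 0.202) and Psmb6 (-0.103 to 0.04). Of 665 comparisons of single genes and ratios with their alternatives, 584 kept direction and side of the threshold, 53 lost and 21 gained P below 0.05, and 7 changed sign. The cause was not tested. Depth limits H2-M9 and H2-Q1, which rest on few counts.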
